A study of Mus musculus with 12 samples.

Results

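Coagulation and fibrinolysis were followed through 34 listed genes in livers of mouse fetuses just before birth. The list comprised clotting factors, their inhibitors, the vitamin K cycle, the plasmin system and *Adtrp*, a gene linked to tissue factor pathway inhibitor. Members were matched by gene symbol to array probesets that carry a single symbol, and where a gene had several such probesets the one with the highest mean signal was taken. In this way 32 of the 34 members were measured among 19938 genes in all. *Klkb1* (plasma prekallikrein) lay on a probeset shared with another gene, *Cpb2* (a carboxypeptidase that slows fibrinolysis) matched no probeset, and neither was analysed.

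The knockout livers came from 6 *Ppara*-/- fetuses, which lack PPARα, the fatty acid-activated nuclear receptor, and the comparison livers from 6 *Ppara*+/+ fetuses. All were taken at E19.5 by cesarean section from matings of heterozygous parents, 1 whole liver per array, and the labels name no drug or diet. The strain is SV129 in the labels but C57BL/6 in the methods of the study, which also state that the RNAs of each genotype came from several litters, fewer than the livers. The deletion was constitutive and whole livers were hybridized, so a gene read from blood-forming or endothelial cells cannot be told apart from one read in hepatocytes, nor fewer cells of a type from less RNA per cell.

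Blood clots when thrombin converts fibrinogen to fibrin. Tissue factor with factor VIIa starts the cascade, factors IXa and VIIIa amplify it, factors Xa and Va form thrombin, and plasmin later dissolves the clot. The liver secretes most of these proteins, hepatocytes making the fibrinogen chains, the vitamin K-dependent factors and most of the serine protease inhibitors (serpins), while factor VIII, von Willebrand factor and thrombomodulin are known mainly from endothelium. *Adtrp* encodes the androgen-dependent TFPI-regulating protein, a membrane protein that raises tissue factor pathway inhibitor in endothelial cells and that hydrolyses fatty acid esters of hydroxy fatty acids.

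*Ppara* itself, the check of the labels, averaged 9.83 ± 0.09 in *Ppara*-/- livers and 10.84 ± 0.10 in *Ppara*+/+ livers (log2 signal, SD, n = 6 each), and the groups did not overlap. Array medians lay between 6.71 and 6.75. By *Xist* and Y-linked signals 5 *Ppara*-/- fetuses were female and 1, mouse 2, was male, against 3 female and 3 male *Ppara*+/+ fetuses (mice 2, 3 and 4). On the first principal component of all genes *Ppara*-/- mouse 1 lay at -1.9 and the other *Ppara*-/- livers between 9.8 and 20.9. *Ppara*+/+ mouse 6 lay at 3.3 and the other *Ppara*+/+ livers between -21.1 and -5.2. Calls that change without these 2 livers are also given without them. Each was the liver of its genotype nearest the other genotype in these same data, so leaving them out tends to widen differences. Calls gained or differences enlarged in that way describe this choice of livers and are no independent support. Among 9 measured hepatocyte markers 0 were called, and their mean log2 signal averaged 13.02 in *Ppara*-/- livers and 13.04 in *Ppara*+/+ livers. These means lay near the top of the arrays (highest value 13.91), and whether the array scale compresses differences there was not tested.

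Most of the clotting system did not differ detectably between genotypes. Of 32 measured members, 2 were lower in *Ppara*-/- livers (*Adtrp* and *F9*), 2 were higher (*Serpina5* and *Serpina10*) and 28 were not called (limma, p-values adjusted over all genes, threshold 0.05). That is 12.5% of the members, beside 7.24% of all genes called in either direction, 3.82% called lower and 3.42% called higher. *Adtrp* was listed with its difference already known, and the members as a whole were chosen with earlier results of these data known. The share of members called therefore does not measure enrichment. The median log2 difference, *Ppara*-/- minus *Ppara*+/+, was 0.01 over the members and 0.01 over all genes, and 22 of the 32 members differed by less than 0.1. In simulated arrays only 17.9% of log2 changes of 0.2 were called, so a member not called may still differ by that size. Livers of the 2 genotypes did not overlap for 3 members, *Adtrp* below and *Serpina5* and *Serpina10* above, beside 3.59% of all genes (2.29% below and 1.3% above). Without *Ppara*-/- mouse 1 and *Ppara*+/+ mouse 6 together, a setting added after the data were seen, 6 members were lower and 2 higher. Calls over all 19938 genes rose as well, from 761 lower and 682 higher to 1552 lower and 1529 higher.

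**Figure D1:**
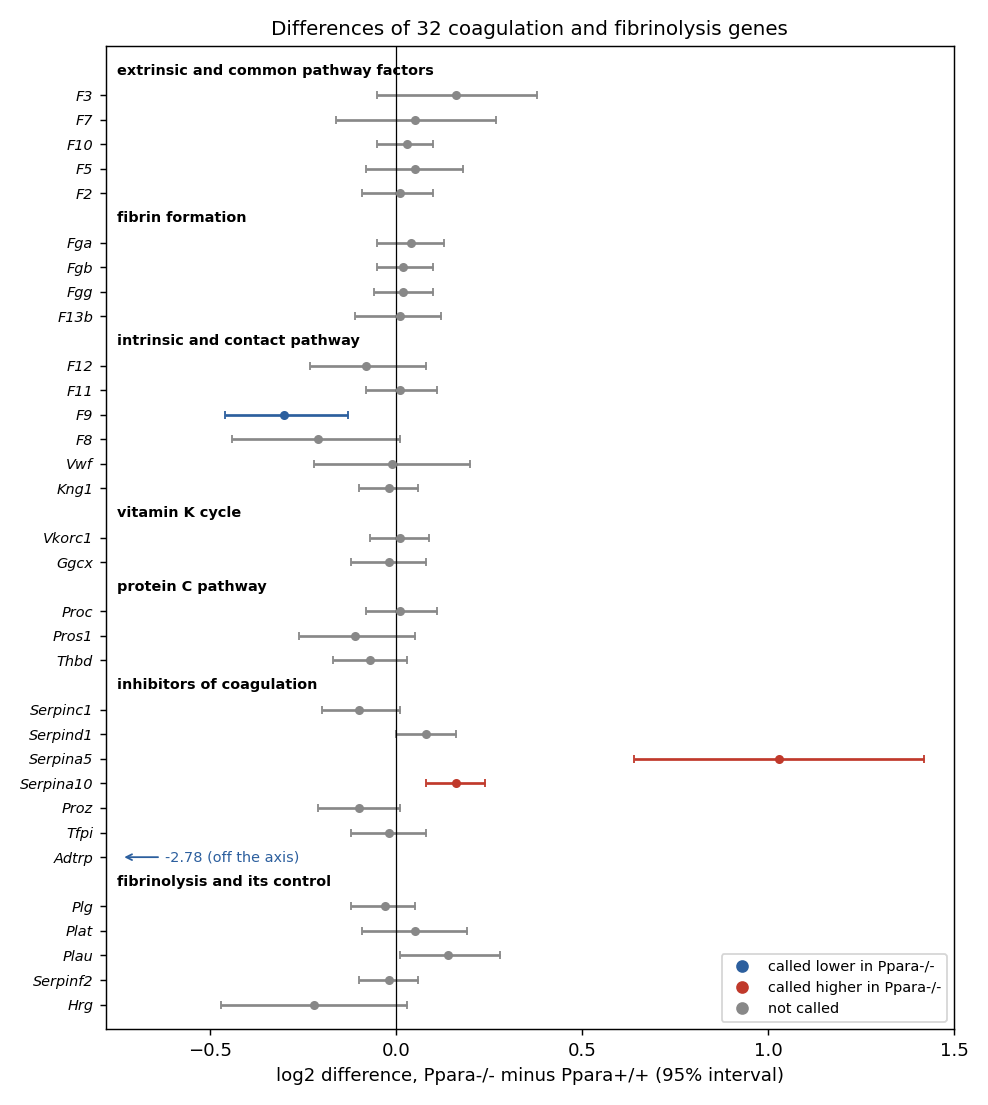
The x axis gives the log2 difference (*Ppara*-/- minus *Ppara*+/+) for the 32 measured members grouped by role (y axis), with bars for the 95% interval of each gene taken alone and colours for calls over all genes. *Adtrp*, at -2.78, lies off the axis, *Serpina5* at 1.03, *F9* at -0.30, and the 4 genes of fibrin formation between 0.01 and 0.04.

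For the members that differed most, the 250 bases before the annotated gene start were read from RefSeq (assembly GRCm38.p6), to show the sequence at which a nuclear receptor could meet these genes. PPARα binds with its partner RXR to repeats of AGGTCA. Capitals mark each AGGTCA on either strand. The *Adtrp* window lies at chr13:41847617-41847866 on the minus strand and belongs to the more upstream of 2 listed starts, that of *Serpina5* at chr12:104100863-104101112 on the plus strand and that of *F9* at chrX:59999214-59999463 on the plus strand.
Adtrp: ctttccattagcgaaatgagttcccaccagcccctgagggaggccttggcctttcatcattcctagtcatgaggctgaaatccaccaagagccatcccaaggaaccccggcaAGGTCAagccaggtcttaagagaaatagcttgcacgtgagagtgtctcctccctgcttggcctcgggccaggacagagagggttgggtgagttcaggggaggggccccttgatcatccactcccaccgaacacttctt
Serpina5: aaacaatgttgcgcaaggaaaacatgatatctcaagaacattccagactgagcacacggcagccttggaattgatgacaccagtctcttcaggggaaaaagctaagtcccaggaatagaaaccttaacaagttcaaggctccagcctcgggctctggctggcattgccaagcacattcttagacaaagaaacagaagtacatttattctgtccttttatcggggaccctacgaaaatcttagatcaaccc
F9: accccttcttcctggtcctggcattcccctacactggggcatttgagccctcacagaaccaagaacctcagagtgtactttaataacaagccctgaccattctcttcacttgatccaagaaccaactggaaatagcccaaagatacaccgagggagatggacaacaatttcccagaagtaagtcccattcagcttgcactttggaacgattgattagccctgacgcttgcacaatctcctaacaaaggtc

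The *Adtrp* window shown held 1 AGGTCA, which begins 138 bases before the start on the strand of the gene. The window of the other *Adtrp* start (chr13:41847489-41847738) held 0, as did the *Serpina5* and *F9* windows. *Serpina10* is not in the promoter table. Windows of 26 members could be searched, and 7 of them held an AGGTCA on either strand (*Adtrp*, *F2*, *F5*, *F7*, *F10*, *Fgg* and *Serpinf2*), through at least 1 of their windows, beside 15.8% of all 27025 genes counted in the same way. Counted by window it was 7 of 28 for the members (25%), beside 14% of all 32851 windows. Only *Adtrp* among these 7 was called. A perfect direct repeat of AGGTCA with 1 base between, searched on both strands, was found before 0 members and in 0.0335% of all windows.

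*Adtrp* fell in every *Ppara*-/- liver. Its log2 signal had a lowest value of 6.06, a median of 6.21 and a highest of 6.69 in *Ppara*-/- livers, against 8.46, 9.17 and 9.35 in *Ppara*+/+ livers. The highest *Ppara*-/- liver was mouse 3 and the lowest *Ppara*+/+ liver mouse 6, and a wide gap separated them. The means were 6.29 ± 0.25 in *Ppara*-/- livers and 9.08 ± 0.31 in *Ppara*+/+ livers (SD, n = 6 each), a log2 difference of -2.78 (SE 0.14, 95% interval -3.08 to -2.48, limma adjusted p = 1.3e-08), which is 6.88-fold lower. A difference of at least 1 on the log2 scale in either direction was measured for 0.431% of all genes. *Adtrp* stayed called under all 28 alternative settings, with log2 differences from -2.95 to -2.54. In *Ppara*-/- livers its mean signal lay below the array medians, in the range where an array signal may hold background, so the fold is that of the signal.

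The name of *Adtrp* refers to androgen, and the sexes were unevenly spread over the genotypes. In *Ppara*-/- livers the male, mouse 2, read 6.29, within the 6.06 to 6.69 of the 5 females. The 3 male *Ppara*+/+ livers read 9.35, 9.21 and 9.16 and the 3 females 9.17, 9.10 and 8.46. With fetal sex, scored from *Xist* against Y-linked signals, as a covariate the log2 difference between genotypes was -2.71 (limma adjusted p = 9.2e-08).

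**Figure D2:**
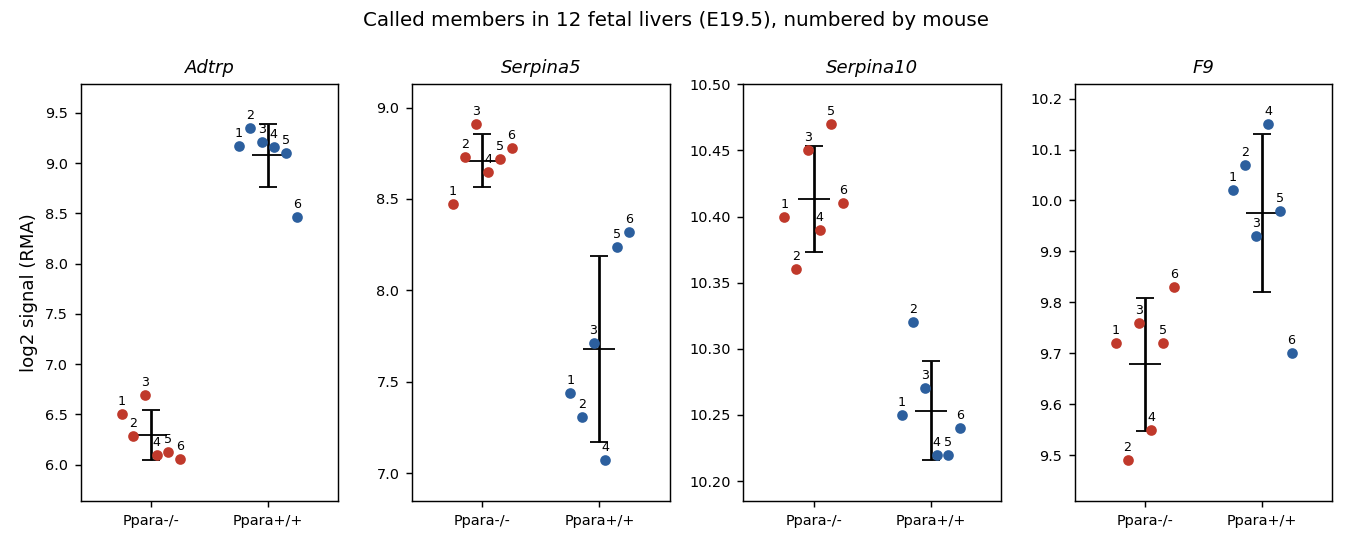
Log2 signal (y axis, a scale of its own in each panel) of the 4 called members in each liver, with *Ppara*-/- left and *Ppara*+/+ right on the x axis, points numbered by mouse, and black bars that span mean ± SD (n = 6). *Adtrp* averaged 6.29 and 9.08, *Serpina5* 8.71 and 7.68, *Serpina10* 10.41 and 10.25, and *F9* 9.68 and 9.98.

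*Aig1*, the mouse gene related to *Adtrp* whose product hydrolyses the same kind of lipid, was lower as well, by a smaller amount. Its lowest, median and highest signals were 8.14, 8.26 and 8.35 in *Ppara*-/- livers, against 8.26, 8.65 and 8.74 in *Ppara*+/+ livers, and the groups overlapped through *Ppara*+/+ mouse 6. The log2 difference was -0.30 (SE 0.08, limma adjusted p = 0.032), and without *Ppara*-/- mouse 1 and *Ppara*+/+ mouse 6 it was -0.38 (0.00233). The call held under 15 of 28 alternative settings and ended with the sex score (0.098). It also ended without any 1 of *Ppara*-/- mice 2, 4, 5 and 6 or *Ppara*+/+ mice 1 to 4 (adjusted p of 0.0645 to 0.0792). Within the 6 lowest and the 6 highest animal numbers of the labels *Aig1* differed by -0.39 and -0.07 (limma adjusted p = 0.0564 and 0.792). Beside *Adtrp* on chromosome 13, the nearest genes on either side, *Tmem170b* and *Hivep1*, had log2 differences of -0.04 and -0.10 (limma adjusted p = 0.8 and 0.13). A little further along the chromosome, with the unmeasured *Smim13* and *Nedd9* between, *Elovl2*, an elongase of polyunsaturated fatty acids, was 1.68-fold lower in *Ppara*-/- livers (11.16 ± 0.30 and 11.90 ± 0.23, limma adjusted p = 0.0032).

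Among the 7 inhibitors of coagulation, with which *Adtrp* was listed, 1 was lower, 2 were higher and 4 were not called. That is 42.9% called beside 7.24% of all genes, a share that includes *Adtrp*, whose difference was known when it was listed. *Serpina5*, the protein C inhibitor, which in mice is known chiefly from the reproductive tract and in humans is also a plasma protein, rose in *Ppara*-/- livers. It read 8.47 at the lowest, 8.73 at the median and 8.91 at the highest in *Ppara*-/- livers, against 7.07, 7.58 and 8.32 in *Ppara*+/+ livers. No *Ppara*-/- liver lay among the *Ppara*+/+ livers, of which mice 5 and 6, at 8.24 and 8.32, came nearest. The log2 difference was 1.03 (SE 0.18, 95% interval 0.64 to 1.42, limma adjusted p = 0.0035), which is 2.04-fold higher, and it stayed called under all 28 alternative settings, with log2 differences from 0.49 to 1.22.

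*Serpina10*, the inhibitor of factor Xa that works with protein Z, rose slightly but evenly. Its lowest, median and highest signals were 10.36, 10.41 and 10.47 in *Ppara*-/- livers and 10.22, 10.25 and 10.32 in *Ppara*+/+ livers, so that the groups did not overlap. The log2 difference was 0.16 (SE 0.04, 95% interval 0.08 to 0.24, limma adjusted p = 0.021), 1.12-fold. The call ended without *Ppara*-/- mouse 5 (adjusted p = 0.0594) and with the sex score (0.0536).

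Protein Z, the cofactor of *Serpina10*, was measured through *Proz* and was not called, at -0.10 (95% interval -0.21 to 0.01). *Serpinc1*, antithrombin, averaged 12.62 ± 0.06 in *Ppara*-/- livers and 12.72 ± 0.08 in *Ppara*+/+ livers and was not called (log2 difference -0.10, adjusted p = 0.27). Without *Ppara*-/- mouse 1 and *Ppara*+/+ mouse 6, *Proz* and *Serpinc1* were called lower, each at -0.15 (limma adjusted p = 0.039 and 0.038). *Serpind1*, heparin cofactor II, differed by 0.08, and in 5 of 6 *Ppara*-/- livers it exceeded every *Ppara*+/+ liver, but it too was not called (adjusted p = 0.25). *Tfpi*, the inhibitor that *Adtrp* is named for, read 8.70 ± 0.09 in *Ppara*-/- livers and 8.73 ± 0.04 in *Ppara*+/+ livers, a log2 difference of -0.02 with a 95% interval of -0.12 to 0.08 (adjusted p = 0.85). The fall of *Adtrp* stood beside a *Tfpi* signal whose interval holds changes of at most 0.12 in size.

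*Serpina10* and *Serpina5* lie in 1 row of serpin genes on chromosome 12, with 11 protein-coding genes between them. Of the 13 genes of this stretch 10 were measured, and only *Serpina10* and *Serpina5* were called. No value is given for *Serpina1a*, *Serpina1b* and *Serpina1e*, close copies of the α1-antitrypsin gene that had no single-symbol probeset. *Serpina1c*, of the same family, differed by 0.01 (12.58 in *Ppara*-/- and 12.56 in *Ppara*+/+ livers), although its probes may read its close copies too. *Serpina12*, the nearest gene to *Serpina5*, differed by 0.16 (adjusted p = 0.19) at a mean signal of 4.86 in *Ppara*-/- and 4.70 in *Ppara*+/+ livers, below the array medians. *Serpina6*, the corticosteroid-binding globulin and the nearest gene to *Serpina10*, had a log2 difference of 1.43 but was not called (adjusted p = 0.12). Its values spread over 9.11 to 11.56 in *Ppara*-/- livers, against 8.39 to 11.48 in *Ppara*+/+ livers, with mouse 1 lowest in the *Ppara*-/- group and mouse 6 highest in the *Ppara*+/+ group. Without these 2 livers *Serpina6* was called higher, with a log2 difference of 2.19 (limma adjusted p = 6.2e-04).

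**Figure D3:**
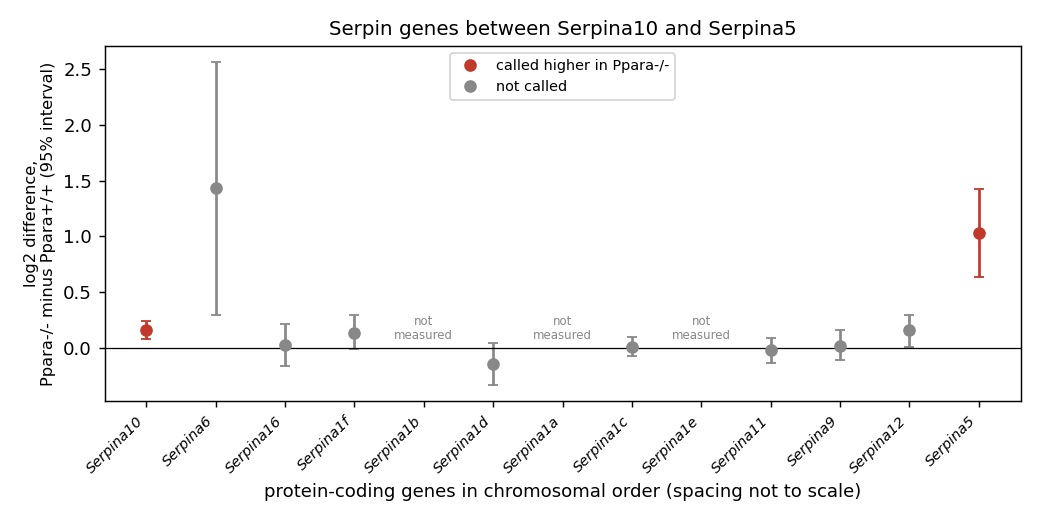
Log2 difference, *Ppara*-/- minus *Ppara*+/+ (y axis, bars for 95% intervals), of protein-coding genes from *Serpina10* to *Serpina5* in their order on the chromosome (x axis, not to scale), where "not measured" marks genes with no single-symbol probeset. *Serpina10* at 0.16 and *Serpina5* at 1.03 were called, and *Serpina6*, at 1.43 with an interval of 0.30 to 2.56, was not.

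Among the genes that start clotting and form thrombin none was called. The list held tissue factor (*F3*) and factors VII, X, V and prothrombin (*F7*, *F10*, *F5* and *F2*), and 0 of these 5 members were lower and 0 higher, with log2 differences from 0.01 to 0.16. Prothrombin read 12.65 to 12.72 in *Ppara*-/- livers and 12.55 to 12.75 in *Ppara*+/+ livers, so its groups lay within each other. *F10* differed by 0.03 (95% interval -0.05 to 0.10). *F3*, whose signal lay under the array medians, read 6.32 ± 0.27 in *Ppara*-/- livers and 6.16 ± 0.09 in *Ppara*+/+ livers (SD, n = 6 each, adjusted p = 0.4). *F7*, *F10* and *Proz* lie side by side on chromosome 8, and neither they nor their outer neighbours *Mcf2l* and *Pcid2* were called.

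In fibrin formation 0 of 4 genes were called. The 3 fibrinogen chain genes, *Fga*, *Fgb* and *Fgg*, adjoin each other on chromosome 3 and differed by 0.04, 0.02 and 0.02 on the log2 scale. *Fga* read 12.30 to 12.45 in *Ppara*-/- livers, against 12.29 to 12.39 in *Ppara*+/+ livers. *Fgb* read 13.21 to 13.27 in *Ppara*-/- livers, against 13.16 to 13.24 in *Ppara*+/+ livers, and *Fgg* 13.27 to 13.34 in *Ppara*-/- livers, against 13.23 to 13.31 in *Ppara*+/+ livers. The 95% intervals of the 3 genes together reached from -0.06 to 0.13, so a log2 change beyond 0.13 in any of them lies outside its interval. Their signals, like those of other members such as *Kng1* and *Plg*, were near the top of the arrays, whose highest value was 13.91. Whether the array scale compresses differences there was not tested. *F13b*, the carrier subunit of the fibrin-crosslinking factor XIII, differed by 0.01.

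Of the intrinsic and contact pathway 1 of 6 measured genes was lower. That is 16.7% called, beside 7.24% of all genes, and 1 call in so short a list does not describe the pathway. *F9*, factor IX, the vitamin K-dependent protease missing in haemophilia B, read 9.49 to 9.83 in *Ppara*-/- livers (mean 9.68 ± 0.13), against 9.70 to 10.15 in *Ppara*+/+ livers (mean 9.98 ± 0.15, SD, n = 6 each). The groups overlapped only through *Ppara*+/+ mouse 6, at 9.70, and without that liver and *Ppara*-/- mouse 1 the log2 difference of *F9* was -0.36 (limma adjusted p = 0.00383). The log2 difference was -0.30 (SE 0.08, 95% interval -0.46 to -0.13, limma adjusted p = 0.03), 1.23-fold lower. This call held under 14 of 28 alternative settings and ended with the sex score (0.0727) and without any 1 of *Ppara*-/- mice 2, 4 and 5 or *Ppara*+/+ mice 1 to 5 (adjusted p of 0.0504 to 0.0749).

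None of the other vitamin K-dependent clotting proteins was called over all livers. Among the 7 genes of proteins with a Gla domain, the part that γ-carboxylation fits for binding calcium and membranes, 1 was lower and 6 were not called. The lower gene was *F9*, and the share called was 14.3%, beside 7.24% of all genes. *Proc* (protein C) differed by 0.01 and *Pros1* (protein S, its cofactor) by -0.11 (95% interval -0.26 to 0.05). The intervals of *Pros1*, *Proz* (-0.21 to 0.01) and *F7* (-0.16 to 0.27) overlap that of *F9* (-0.46 to -0.13). *Ggcx*, the γ-carboxylase, and *Vkorc1*, which recycles vitamin K, differed by -0.02 and 0.01, with both intervals between -0.12 and 0.09. The nearest measured genes of *F9* on the X chromosome, *Fgf13* and *Mcf2*, read below the array medians and were not called.

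Factor VIII and von Willebrand factor, which circulate as a complex and come mainly from endothelium, were not called. *F8* read 8.81 at the lowest, 8.91 at the median and 9.19 at the highest in *Ppara*-/- livers and 8.81, 9.30 and 9.38 in *Ppara*+/+ livers, a log2 difference of -0.21 (95% interval -0.44 to 0.01, adjusted p = 0.27), and it was called lower without *Ppara*-/- mouse 1 and *Ppara*+/+ mouse 6 (-0.33, limma adjusted p = 0.027). *Vwf* differed by -0.01 and *Thbd*, thrombomodulin, by -0.07. The mean signals of *Thbd*, 6.59 in *Ppara*-/- and 6.65 in *Ppara*+/+ livers, lay under the array medians. Of 12 endothelial markers 0 were called, with list means of 9.01 to 9.12 in *Ppara*-/- livers, against 8.96 to 9.19 in *Ppara*+/+ livers. Megakaryocytes, which also make clotting proteins, gave a like picture, with 0 of 8 measured markers called and means of 9.62 to 9.89 in *Ppara*-/- livers and 9.61 to 9.92 in *Ppara*+/+ livers. *F11*, *F12* and the kininogen gene *Kng1* differed by 0.01, -0.08 and -0.02, and the probes of *Kng1* may also read its close copy *Kng2* (-0.03).

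In the plasmin system 0 of 5 measured members were called. *Plg*, plasminogen, averaged 12.94 ± 0.04 in *Ppara*-/- livers and 12.97 ± 0.06 in *Ppara*+/+ livers. *Serpinf2*, the plasmin inhibitor, averaged 12.83 ± 0.03 in *Ppara*-/- livers and 12.85 ± 0.05 in *Ppara*+/+ livers (SD, n = 6 each). Both activators had signals under the array medians. *Plat* (tissue type) differed by 0.05 and *Plau* (urokinase) by 0.14, 4 of 6 *Ppara*-/- livers exceeding every *Ppara*+/+ liver for *Plau* (adjusted p = 0.21). *Hrg*, the histidine-rich glycoprotein that binds plasminogen and heparin, had the largest difference among members not called, -0.22 (95% interval -0.47 to 0.03, adjusted p = 0.31), with values of 11.73 to 12.32 in *Ppara*-/- livers, against 11.67 to 12.36 in *Ppara*+/+ livers. Without *Ppara*-/- mouse 1 and *Ppara*+/+ mouse 6 it was called lower (-0.40, limma adjusted p = 0.0013).

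Several members followed the animal number that the labels attach to each fetus, whose meaning the labels do not give. In rising order the numbers run over *Ppara*+/+ mouse 1, *Ppara*-/- mouse 1, *Ppara*+/+ mice 2 to 4, *Ppara*-/- mice 2 to 6 and *Ppara*+/+ mice 5 and 6. In a fit with genotype and animal number, a description added after the data were seen, the number term was called for 6 of 32 members, *F12*, *Vwf*, *F8*, *Hrg* and *F5* downwards and *Serpina5* upwards with rising number, beside 2.82% of all genes. *F12*, factor XII, which starts the contact pathway, read 11.31 in *Ppara*-/- mouse 1 and 11.11 to 11.22 in *Ppara*-/- mice 2 to 6, against 11.35 to 11.40 in *Ppara*+/+ mice 1 to 4 and 11.07 and 11.01 in *Ppara*+/+ mice 5 and 6. For *Hrg*, *Ppara*-/- mouse 1, at 12.32, likewise lay among *Ppara*+/+ mice 1 to 4 (12.23 to 12.36), whereas *Ppara*+/+ mouse 6, at 11.67, was the lowest of all 12 livers.

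Within the 6 lowest numbers (2 *Ppara*-/- against 4 *Ppara*+/+ livers) and the 6 highest (4 against 2), *Adtrp* and *Serpina5* kept their direction with no overlap. Groups this small separate easily, and the share of all genes with no overlap in these parts was not counted. *Adtrp* differed by -2.83 in the lower numbers and by -2.54 in the higher ones (limma adjusted p = 8.0e-06 and 0.00198), and *Serpina5* by 1.22 and 0.49 (0.00981 and 0.042). The smaller value of *Serpina5* came with *Ppara*+/+ means of 7.38 in the lower and 8.28 in the higher numbers, beside *Ppara*-/- means of 8.60 and 8.76. *F9* differed by -0.43 and -0.12 (adjusted p = 0.0902 and 0.733) and *F12* by -0.12 and 0.11. *F12* also had no overlap in either part, although its direction turned. *Serpina10* differed by 0.12 and 0.20, with no overlap in either part, and was called in neither (0.562 and 0.235). The part of the animal number in the genotype differences was not tested beyond these fits, since numbers and genotypes overlap only in part. All male fetuses, *Ppara*-/- mouse 2 and *Ppara*+/+ mice 2 to 4, lay among the 6 lowest numbers, and the 6 highest held only females. Fetal sex therefore cannot be fully told apart from the animal number, either between these parts or in the number term.

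**Figure D4:**
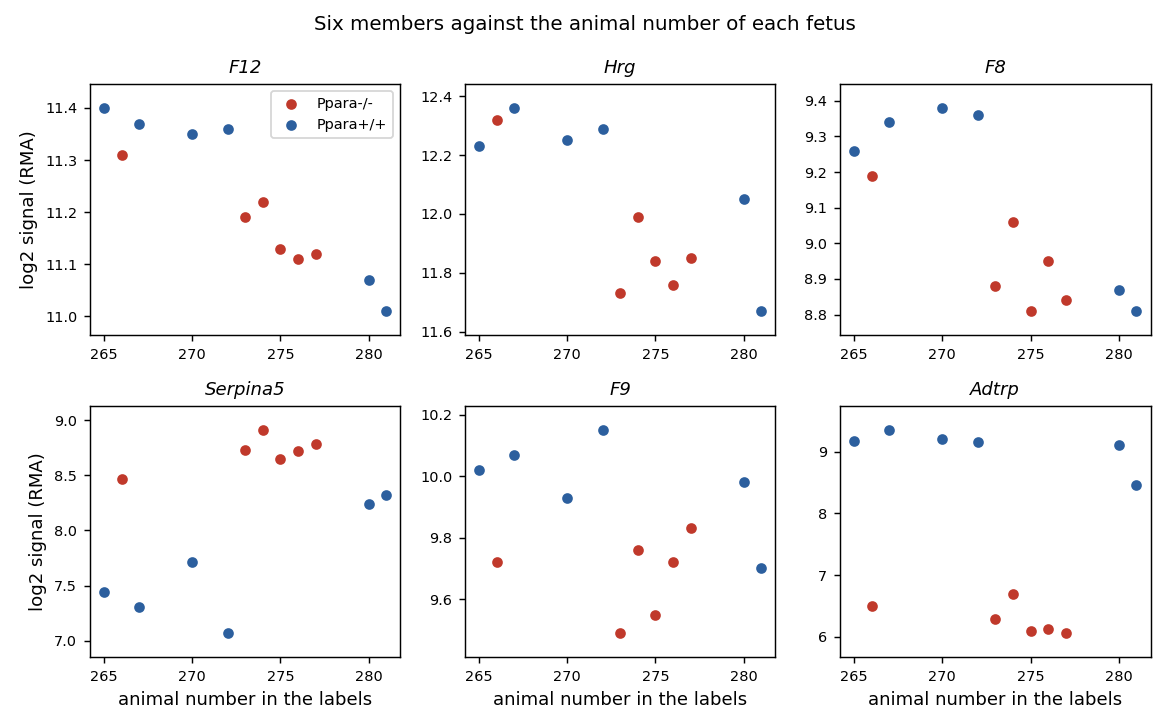
Log2 signal (y axis, a scale of its own in each panel) of *F12*, *Hrg*, *F8*, *Serpina5*, *F9* and *Adtrp* against the animal number of each fetus (x axis), with *Ppara*-/- livers in red and *Ppara*+/+ livers in blue. *F12* lies between 11.35 and 11.40 in *Ppara*+/+ mice 1 to 4 and at 11.07 and 11.01 in *Ppara*+/+ mice 5 and 6, while *Adtrp* lies at 6.69 or below in all *Ppara*-/- livers and at 8.46 or above in all *Ppara*+/+ livers.

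Of 39 further genes of coagulation, fibrinolysis, platelets and neighbouring protease inhibitors 31 were measured, with 1 lower, 1 higher and 29 not called (median log2 difference 0.00). The share called was 6.45%, beside 7.24% of all genes. The list was chosen with earlier results of these data known, so this share measures neither enrichment nor its absence. Both called genes belong to 1 complex, that of annexin A2 with S100A10, which holds plasminogen and its activator on cell surfaces. *Anxa2* rose, with 10.36, 10.78 and 10.86 as lowest, median and highest signal in *Ppara*-/- livers and 10.23, 10.30 and 10.54 in *Ppara*+/+ livers (log2 difference 0.38, SE 0.08, limma adjusted p = 0.012). *S100a10* fell, with 10.59, 10.64 and 10.86 in *Ppara*-/- livers and 10.82, 10.90 and 10.99 in *Ppara*+/+ livers (log2 difference -0.24, SE 0.05, limma adjusted p = 0.013). For *Anxa2* 5 of 6 *Ppara*-/- livers exceeded every *Ppara*+/+ liver and for *S100a10* 5 of 6 were lower than every one, the remaining liver being mouse 1 for *Anxa2* and mouse 3 for *S100a10*. Both calls held under 26 of 28 alternative settings, the exceptions being the fits within 6 livers.

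**Figure D5:**
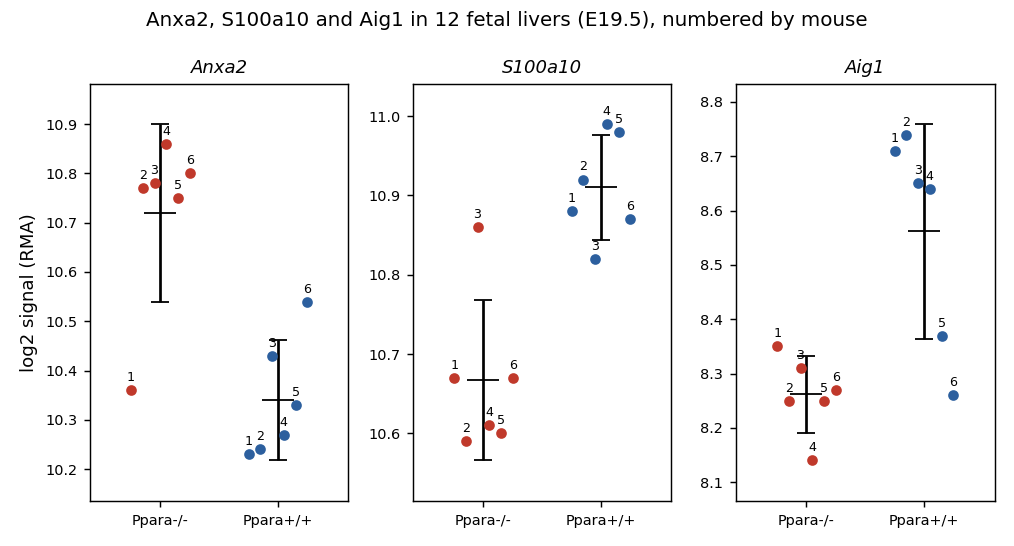
Log2 signal (y axis, a scale of its own in each panel) of *Anxa2*, *S100a10* and *Aig1* in each liver, with *Ppara*-/- left and *Ppara*+/+ right on the x axis, points numbered by mouse, and black bars that span mean ± SD (n = 6). *Anxa2* averaged 10.72 and 10.34, *S100a10* 10.67 and 10.91, and *Aig1* 8.26 and 8.56.

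Macrophages and mesenchymal cells also express *Anxa2*, and their markers were measured beside it. Of 12 macrophage markers 2 were called, *Csf1r* and *Cd5l*, both higher, with list means of 9.38 to 9.55 in *Ppara*-/- livers, against 9.35 to 9.45 in *Ppara*+/+ livers. The 12 stellate and mesenchymal markers held 1 higher (*Reln*) and 1 lower (*Des*), with means of 9.09 to 9.30 in *Ppara*-/- livers and 9.04 to 9.30 in *Ppara*+/+ livers. Over all genes 7.24% were called in either direction and 3.42% higher, and counts this small do not set either marker list apart from those shares. The part of these cells in the rise of *Anxa2* was not tested. The other platelet and plasmin genes measured, among them *Plaur*, the urokinase receptor (0.20, adjusted p = 0.072), *F13a1*, the catalytic subunit of factor XIII (0.00), and *Gp9*, of the platelet receptor for von Willebrand factor (0.01), were not called. *Masp1*, a complement protease that can also cleave fibrinogen, missed the threshold (0.15, adjusted p = 0.056), although its lowest *Ppara*-/- liver, at 11.23, lay above its highest *Ppara*+/+ liver, at 11.21. Without *Ppara*-/- mouse 1 the list held 2 lower and 3 higher genes, and without *Ppara*+/+ mouse 6, 3 lower and 2 higher. Over all genes 2521 and 1978 were called in these 2 settings, against 1443 with all livers.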

How the data were processed

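Total RNA of 12 whole livers was hybridized to Affymetrix Mouse Gene ST arrays, 1 liver per array, and the deposited table holds log2 values that the authors computed by RMA, which corrects background, normalizes between arrays and summarises each probeset. For RMA the version was not given in the sources used here. A platform table gave 1 symbol to 21789 of 35556 probesets, several to 1621 and none to 12146, and 1 member (*Fga*) had 2 probesets. Arrays carry no read depth, and their number, 6 per genotype, limits the precision. Livers that share a litter may not be independent. Signals of different genes were not compared, because probesets differ in response.

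Genotypes were compared two-sided over all 19938 genes with lmFit and eBayes of limma 3.58.1 (R 4.3.3) without covariates, p-values were adjusted by Benjamini-Hochberg, and 95% intervals are per gene. The procedure was tested on simulated arrays. Of simulated log2 changes of 0.2, 12 of 67 were called (17.9%), of 0.5 88.1% and of 1.0 98.5%. The simulated arrays held fewer changed genes than were called in the data, and their livers were independent. The alternatives were other normalizations, filters on low signal, the mean of all probesets, an intensity trend, array weights, covariates or blocks (mouse number, sex, erythroid score, animal number), fits within 6 animal numbers and leaving out livers. Tables and figures used Python 3.11.15, pandas 2.3.3 and matplotlib 3.10.9. Gene order and promoter windows came from RefSeq tables (GRCm38.p6). Members and lists were chosen with earlier results of these data known. The rule for named genes took *Adtrp*, each called member, members not called with a log2 difference of 0.3 or more in size (there were 0), called genes of the wider list, *Ppara*, *Aig1* and genes next to members. Other genes and members given with full values were chosen after their values were seen. A planned comparison of the *Adtrp* and *Aig1* proteins was not made. The erythroid and granulocyte marker lists had 0 called genes of 8 and 12 measured.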

Additional observations from a re-analysis of the deposited data

Results flagged for a closer look

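In 72 sets of 6 livers, 6 held a liver whose gap to the next was large for the range of its group, and chance alone flags about 1 in 20 such sets. *Adtrp* in *Ppara*+/+ mouse 6 read 8.46, below the 9.10 to 9.35 of the other *Ppara*+/+ livers. *Anxa2* in *Ppara*-/- mouse 1 read 10.36, whereas the other *Ppara*-/- livers read 10.75 to 10.86. *S100a10* in *Ppara*-/- mouse 3 read 10.86, above the others at 10.59 to 10.67. *Vwf* in *Ppara*-/- mouse 1 read 8.82 (others 8.63 to 8.69), *F11* in *Ppara*+/+ mouse 6 read 10.92 (others 11.03 to 11.08) and *Fgb* in *Ppara*-/- mouse 5 read 13.27 (others 13.21 to 13.23). The log2 difference of *Adtrp* was -2.91 without *Ppara*+/+ mouse 6, and that of *Anxa2* was 0.45 without *Ppara*-/- mouse 1.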

How the results depend on the processing

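*Adtrp* was lower and *Serpina5* higher under every alternative run. Only 1 member was called lower with the mouse number as a replicate block, with the sex score, with the erythroid score, with a block for the lower or higher 6 animal numbers, and within either set of 6 numbers, since *F9* dropped out. Only 1 was called higher with the replicate block, with the sex score and within either set of numbers, since *Serpina10* dropped out (adjusted p = 0.0502 with the block). The main fit did not take the mouse numbers as pairs. Same-numbered livers had correlations of their deviations from 0.02 to 0.39, all of them positive. For *Ppara*-/- mice 1, 3 and 6 the same-numbered *Ppara*+/+ liver had the highest correlation, and for mice 2, 4 and 5 another did. Leaving out 1 liver at a time gave 1 to 2 members lower and 1 to 2 higher, and in the wider list 1 to 3 lower and 1 to 3 higher. With *Ppara*-/- mouse 1 and *Ppara*+/+ mouse 6 left out together, 6 members were lower, now including *F8* (-0.33), *Serpinc1* (-0.15), *Proz* (-0.15) and *Hrg* (-0.40). *Hrg* was also called with array weights (-0.32, adjusted p = 0.0496). The other 24 members not called stayed uncalled throughout. Over all genes 1443 were called, against 850 with the sex score, 936 with the animal number block, 2743 with array weights and 3081 without those 2 livers. Without 1 liver the count over all genes ran from 851 (*Ppara*-/- mouse 5) to 2521 (*Ppara*-/- mouse 1).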

Other observations

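*A2m* and *Serpina6*, both plasma proteins of the liver that bind proteases or hormones, split the livers in a like way. *A2m*, α2-macroglobulin, read 12.39 in *Ppara*-/- mouse 1 and 12.89 or more in the other *Ppara*-/- livers, against 12.79 and 12.92 in *Ppara*+/+ mice 5 and 6 and 12.12 to 12.36 in *Ppara*+/+ mice 1 to 4. For *Serpina6* the same division gave 9.11 and 10.66 to 11.56 in *Ppara*-/- livers, against 10.43 and 11.48 in *Ppara*+/+ mice 5 and 6 and 8.39 to 9.09 in *Ppara*+/+ mice 1 to 4. Neither gene was called over all 12 livers (log2 differences 0.43 and 1.43, limma adjusted p = 0.095 and 0.12). Without *Ppara*-/- mouse 1 and *Ppara*+/+ mouse 6, a setting chosen after the data were seen, both were called higher in *Ppara*-/- livers, at 0.62 and 2.19 (0.00193 and 6.2e-04).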
